A study of Mus musculus with 8 samples.

Results

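A panel of 10 genes that mark the superficial zone of cartilage, tendon and their fibrous surroundings was followed in costal chondrocytes, the cartilage cells of the rib cage, of mice with and without the microRNA gene Mir324. The members were Prg4, Cilp, Cilp2, Thbs4, Tnmd, Scx, Mkx, Dpt, Col14a1 and Erg, chosen by symbol. Each symbol matched 1 identifier, so 10 genes out of 52325 in the table are described. Rib cages of 8 mice were dissected, 4 wild-type controls (WT) and 4 Mir324-null animals, and collagenase was used to free the cells, with 1 RNA library per mouse and no treatment. The making of the null allele and the age, strain and sex of the mice were not given in the sources used here.

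Lubricin, the product of Prg4, is a mucin-like glycoprotein that coats joint surfaces and lowers friction, and it is made by superficial zone chondrocytes and synovial cells. Tendon and ligament cells depend on the transcription factors scleraxis (Scx) and Mohawk (Mkx), and mature tendon cells carry tenomodulin (Tnmd) on their surface. The other matrix genes of the panel (Cilp, Cilp2, Thbs4, Dpt and Col14a1) encode secreted proteins of cartilage, tendon and connective tissue.

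The deleted gene yields the mature forms below, printed 5′ to 3′ from RefSeq (GRCm38.p6, chromosome 11, 70012060 to 70012082 for the 5p form and 70012095 to 70012114 for the 3p form, plus strand) with the seed, bases 2 to 8, in capitals. They are shown because the seed pairs with target transcripts.
mmu-miR-324-5p: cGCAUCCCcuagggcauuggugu
mmu-miR-324-3p: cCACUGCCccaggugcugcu

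None of the 10 members held the 7-base match to the 5p seed (GGGATGC) in its longest annotated 3′ UTR in GENCODE M21, while 9.36% of 11320 tested genes with a 3′ UTR did. The match to the 3p seed (GGCAGTG) occurred in 1 member, Mkx, against 17.6% of the same genes. The members' 3′ UTRs ran from 161 bases in Thbs4 to 3785 in Cilp, and the median of the tested genes was 1338. A match is a description of the letters, not a site of action. The table lists Mir324 at 0 TPM in every library of both genotypes, so its own row does not check the genotypes.

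Promoters are shown for Dpt, Cilp, Thbs4 and Tnmd, the members with the widest range between libraries, from 250 bases before to 50 after the start of the gene (RefSeq, GRCm38.p6). RefSeq's table held a promoter for 6 of the 10 members. Capitals mark E-boxes (CANNTG, a palindrome, so both strands were searched), the letters bound by basic helix-loop-helix factors, the family of scleraxis. The windows are chr1:164796413-164796712 (plus strand) for Dpt, chr9:65264930-65265229 (plus strand) for Cilp, chr13:92794769-92795068 (minus strand) for Thbs4 and chrX:133850758-133851057 (plus strand) for Tnmd.
Dpt: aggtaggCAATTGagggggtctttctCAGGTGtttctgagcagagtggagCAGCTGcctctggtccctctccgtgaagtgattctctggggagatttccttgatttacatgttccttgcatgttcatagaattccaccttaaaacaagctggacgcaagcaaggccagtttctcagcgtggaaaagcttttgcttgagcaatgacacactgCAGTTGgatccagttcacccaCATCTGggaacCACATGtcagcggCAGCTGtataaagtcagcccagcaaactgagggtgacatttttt
Cilp: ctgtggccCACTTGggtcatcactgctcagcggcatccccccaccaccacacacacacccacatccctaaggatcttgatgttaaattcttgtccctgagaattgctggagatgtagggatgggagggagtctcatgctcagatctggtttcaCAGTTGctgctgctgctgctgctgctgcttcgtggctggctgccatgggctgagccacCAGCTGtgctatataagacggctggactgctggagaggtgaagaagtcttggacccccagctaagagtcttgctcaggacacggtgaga
Thbs4: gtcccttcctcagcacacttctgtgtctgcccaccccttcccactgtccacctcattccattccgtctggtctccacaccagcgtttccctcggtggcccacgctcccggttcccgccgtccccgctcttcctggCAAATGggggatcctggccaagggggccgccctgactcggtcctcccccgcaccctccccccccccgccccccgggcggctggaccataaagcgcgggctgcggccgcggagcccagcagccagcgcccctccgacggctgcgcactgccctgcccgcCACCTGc
Tnmd: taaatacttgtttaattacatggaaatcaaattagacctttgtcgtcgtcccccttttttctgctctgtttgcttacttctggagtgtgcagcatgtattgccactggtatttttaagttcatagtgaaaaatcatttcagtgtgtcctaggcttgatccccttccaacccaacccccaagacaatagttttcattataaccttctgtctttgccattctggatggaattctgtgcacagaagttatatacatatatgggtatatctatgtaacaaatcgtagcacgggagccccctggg

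The Dpt window held 7 E-boxes, the Cilp window 3, the Thbs4 window 2 and the Tnmd window 0. Of all 32851 promoter windows of 300 bases, 72.3% held at least 1 E-box, the median was 1, and 2.10% held at least 5. The letters TATAAA, on either strand, were present once in the Dpt window and not in the Cilp, Thbs4 or Tnmd windows, against 13.6% of all windows with a match. These counts describe letters in the windows and not binding.

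Values are TPM, a unit that takes account of transcript length and gives each library the same total. Sequencing depth is unknown, so intervals for counting error were not computed. Null replicate 3 was the least like the rest, with a mean Spearman correlation to them over the tested genes of 0.864 against 0.895 to 0.914, and with pseudogenes at 25.0% of its TPM against 17.7% to 19.1%. Fold changes of the members are therefore also given without it. Xist, an RNA of the inactive X chromosome, exceeded 1 TPM in 3 WT libraries (replicates 1, 3 and 4) and in 2 null libraries (replicates 1 and 2). Chondrocyte markers were abundant: the 9 listed genes found in the table summed to 42049 to 52233 TPM per WT library and 38759 to 53583 TPM per null library.

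All 10 members passed the filter on low values, which asked for 1 TPM or more in at least 4 libraries. The mean over the 8 libraries ran from 66.4 TPM for Tnmd down to 1.43 TPM for Dpt. Tnmd and Cilp2 (59.7 TPM) could not be ordered, since Tnmd was the higher in 4 of 8 libraries. Cilp2 exceeded Prg4 (38.7 TPM) in all 8. Prg4 exceeded Thbs4 (25.9 TPM) in 7 of 8, and Thbs4 exceeded Col14a1 (20.0 TPM) in 6 of 8. Col14a1 exceeded Erg (9.07 TPM) in all 8. Erg exceeded Scx (6.37 TPM) in 7 of 8, Scx exceeded Cilp (4.14 TPM) in 6, Cilp exceeded Mkx (2.35 TPM) in 7, and Mkx exceeded Dpt in 6. Among the 13910 genes tested, Tnmd lay at percentile 88.8 of mean TPM, Cilp2 at 87.8 and Prg4 at 82.0, whereas Mkx lay at 18.5 and Dpt at 7.99.

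**Figure D1:**
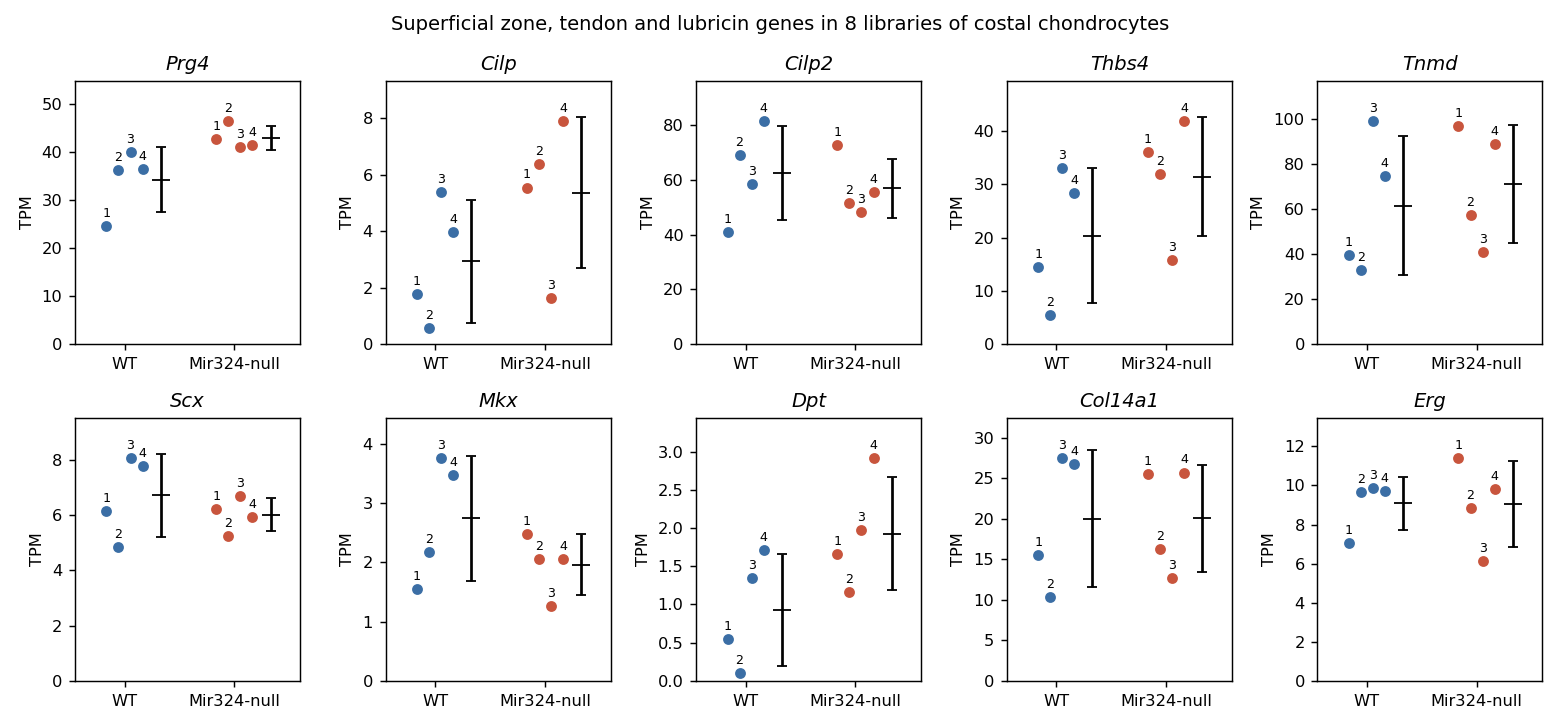
TPM of each gene (vertical axes, linear from 0) in the 4 WT and 4 Mir324-null libraries; numbers give the replicate, and the black mark and bar give the mean and SD (n = 4). Prg4 is the single gene of the panel whose null values (41.1 to 46.5 TPM) all lie above its WT values (24.6 to 40.0 TPM).

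The comparison of genotypes asks which of these transcripts differ in chondrocytes that lack Mir324. All 10 members were part of a single fit over the tested genes. At a limma adjusted p under 0.05, 0 members were called, against 3 of all tested genes (0.0216%). At an unadjusted p under 0.05 the count of members was also 0, against 4.15% of all tested genes. Log2 fold changes, null minus WT on the log2(TPM + 1) scale, were above 0 for 6 members and below 0 for 4, with a median of 0.15 for the members and -0.05 for all tested genes. Of all 13910 tested genes, 5551 were above 0 and 8359 below. The groups did not overlap for 1 member, Prg4, against 2.68% of tested genes in either direction and 0.978% with the null group higher.

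Prg4 (chromosome 1, 150449412 to 150466165 in GRCm38, minus strand) measured 24.6, 36.2, 40.0 and 36.5 TPM in WT replicates 1 to 4, and null replicates 1 to 4 gave 42.8, 46.5, 41.1 and 41.5 TPM. Every null value lay above every WT value, and WT replicate 1 was the lowest library. The WT mean was 34.3 ± 6.73 TPM and the null mean 43.0 ± 2.46 TPM (SD, n = 4 per genotype). This gave a log2 fold change of 0.34 (95% interval -0.03 to 0.71), which did not pass (limma adjusted p = 0.981). Without WT replicate 1 it was 0.19, and without null replicate 3 it was 0.36.

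The cartilage intermediate layer proteins are a pair of related secreted matrix proteins, and their genes differed in level and in pattern. Cilp2 measured 41.0, 69.1, 58.5 and 81.3 TPM in the 4 WT libraries, in replicate order, and 72.5, 51.6, 48.3 and 55.3 TPM in the 4 null libraries. The null values lay inside the WT range, and the log2 fold change was -0.11 (95% interval -0.62 to 0.41; limma adjusted p = 0.983); it was -0.03 without null replicate 3 and ran from -0.29 without WT replicate 1 to 0.03 without WT replicate 4.

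Cilp, whose product is known as an antagonist of TGF-beta signalling, measured 1.76, 0.584, 5.40 and 3.98 TPM in WT and 5.54, 6.36, 1.63 and 7.89 TPM in the null libraries. WT replicates 1 and 2 and null replicate 3 were low, and the other 5 libraries were at 3.98 TPM or above. The WT mean was 2.93 ± 2.16 TPM and the null mean 5.35 ± 2.66 TPM (SD, n = 4 per genotype). The estimated log2 fold change was 0.75 (95% interval -0.43 to 1.94; limma adjusted p = 0.981), with 1.13 without null replicate 3 and 0.38 without WT replicate 2.

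Thbs4 encodes thrombospondin-4, a pentameric matrix protein of tendon and muscle attachments and a relative of COMP. It measured 14.6, 5.51, 33.2 and 28.3 TPM in the WT libraries and 36.0, 31.9, 15.9 and 41.9 TPM in the null libraries. The same 3 libraries were low as for Cilp, and the groups overlapped. Its log2 fold change was 0.78 (95% interval -0.45 to 2.01; limma adjusted p = 0.981), with 1.07 without null replicate 3, and it ran from 0.29 without WT replicate 2 to 1.09 without WT replicate 3. Within WT the highest value was 6.01 times the lowest.

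Tnmd (X chromosome, 133850980 to 133865577, plus strand) encodes tenomodulin, a transmembrane glycoprotein of mature tendon cells. It measured 39.8, 32.8, 99.1 and 74.9 TPM in the WT libraries and 96.8, 57.4, 41.1 and 89.1 TPM in the null libraries. The null values lay inside the WT range. The log2 fold change was 0.26 (95% interval -0.67 to 1.19; limma adjusted p = 0.981), with 0.49 without null replicate 3, and it ran from 0.01 without WT replicate 2 to 0.53 without WT replicate 3. Libraries with Xist above 1 TPM held Tnmd at 39.8 to 99.1 TPM and the others at 32.8 to 89.1 TPM.

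The tendon transcription factors were low but detected in every library. Scx, a basic helix-loop-helix factor of tendon progenitors, measured 6.14, 4.85, 8.07 and 7.79 TPM in WT and 6.22, 5.24, 6.69 and 5.92 TPM in the null libraries. The null values lay within the WT range, with a log2 fold change of -0.12 (95% interval -0.52 to 0.28; limma adjusted p = 0.981), which was -0.16 without null replicate 3 and ran from -0.24 without WT replicate 2 to -0.03 without WT replicate 3. Mkx, a homeobox factor needed for tendon collagen production, measured 1.55, 2.17, 3.76 and 3.48 TPM in WT and 2.48, 2.06, 1.26 and 2.06 TPM in the null libraries. WT replicates 3 and 4 were the highest libraries for both factors. For Mkx the log2 fold change was -0.31 (95% interval -0.85 to 0.24; limma adjusted p = 0.981), with -0.18 without null replicate 3, and it ran from -0.48 without WT replicate 1 to -0.18 without WT replicate 3.

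Dpt, the gene of dermatopontin, a small matrix protein that binds decorin, had the widest relative range of the panel. It measured 0.555, 0.104, 1.34 and 1.71 TPM in the WT libraries and 1.66, 1.16, 1.97 and 2.92 TPM in the null libraries. WT replicate 2 was near 0, and the groups overlapped between 1.16 and 1.71 TPM. The WT mean was 0.928 ± 0.731 TPM and the null mean 1.93 ± 0.74 TPM (SD, n = 4 per genotype). With a log2 fold change of 0.65 (95% interval -0.05 to 1.36) it did not pass (limma adjusted p = 0.981). The estimate was 0.64 without null replicate 3 and 0.42 without WT replicate 2, and 1.33 with a pseudocount of 0.1 in place of 1.

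Col14a1 encodes collagen XIV, which lies on the surface of collagen fibrils in tendon and dermis. It measured 15.5, 10.3, 27.5 and 26.7 TPM in WT and 25.5, 16.3, 12.7 and 25.7 TPM in the null libraries. The WT mean was 20.0 ± 8.47 TPM and the null mean 20.1 ± 6.57 TPM (SD, n = 4 per genotype). Its estimated log2 fold change was 0.05 (95% interval -0.76 to 0.86; limma adjusted p = 0.997). It was 0.23 without null replicate 3 and -0.22 without WT replicate 2, and it turned sign when any of 4 single libraries was left out.

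Erg, an ETS family factor of articular chondrocytes that is also a standard endothelial gene, measured 7.07, 9.68, 9.88 and 9.72 TPM in WT and 11.4, 8.82, 6.15 and 9.81 TPM in the null libraries. WT replicate 1 and null replicate 3 were the lowest libraries. Its fold change on the log2 scale was -0.02 (95% interval -0.48 to 0.43; limma adjusted p = 0.998), and it ran from -0.13 without null replicate 1 to 0.13 without null replicate 3, with 0.04 under median-of-ratios scaling. In null replicate 3, where Erg was lowest, the 13 listed endothelial genes were mixed. Of these, 6 had their highest value of the 8 libraries there, among them Pecam1 at 8.35 TPM, and 1, Fli1, its lowest at 1.37 TPM. For 2 others, Kdr and Esam, the 3 lowest libraries were WT replicates 1 and 2 and null replicate 3. The whole list summed to 16.0 to 61.6 TPM per WT library and 46.8 to 71.5 TPM per null library. The sum in null replicate 3 was 54.9 TPM. Of the 10 tested, 9 had fold changes above 0, and none of the 13 was at 0 in all libraries. The part of endothelial RNA in the Erg values was not tested.

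**Figure D2:**
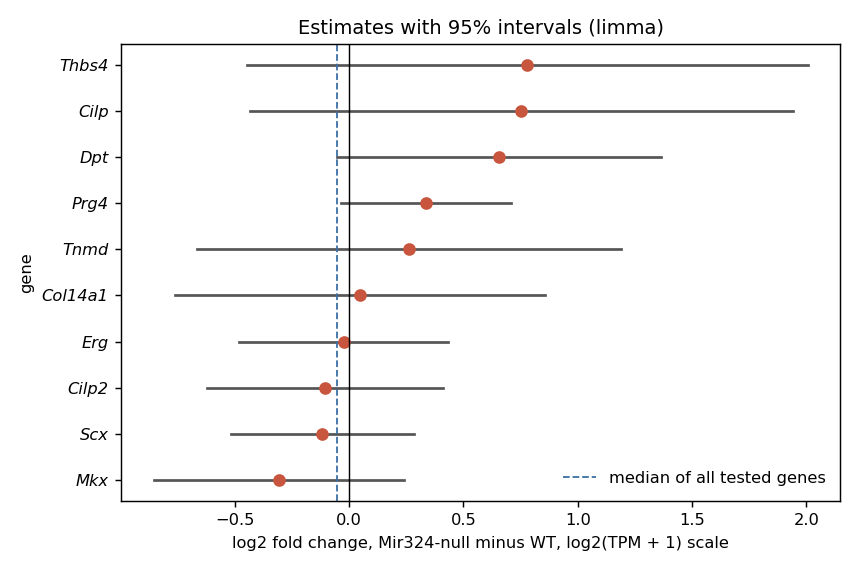
Log2 fold change of each gene, Mir324-null minus WT, on the log2(TPM + 1) scale (horizontal axis); points are limma estimates, lines are 95% intervals, and the dashed line is the median of all tested genes (-0.05). All 10 intervals include 0.

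Several members varied widely between mice of a single genotype. The highest WT value was 16.4 times the lowest for Dpt, 9.24 times for Cilp, 6.01 times for Thbs4, 3.02 times for Tnmd and 2.67 times for Col14a1. It was 2.43 times for Mkx, 1.98 times for Cilp2, 1.66 times for Scx, 1.63 times for Prg4 and 1.40 times for Erg. Within the null group these ratios ran from 1.13 for Prg4 to 4.83 for Cilp. Ranked by within-group SD on the log2(TPM + 1) scale among the tested genes, Thbs4 lay at percentile 92.7, Cilp at 92.4, Tnmd at 88.9, Col14a1 at 85.4 and Dpt at 80.3. Prg4 lay at 28.9 and Scx at 30.5.

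The low libraries were few. The lowest value of each of the 10 members fell in WT replicate 2 (6 members), WT replicate 1 (2 members) or null replicate 3 (2 members), and none of these 3 libraries held a highest value. The median-of-ratios scale factor of null replicate 3 was 0.813, against 0.984 to 1.08 in the others, so a typical gene also read lower there. It was the lowest library for 6 of 9 chondrocyte, 8 of 14 tendon matrix and 8 of 13 superficial zone and joint genes. Of 13 endothelial genes it was the highest library for 6 and the lowest for 1. The share of all tested genes lowest in null replicate 3 was not computed, so these counts cannot be told from the shift of a typical gene. WT replicate 3 held the highest value of Tnmd, Scx, Mkx and Col14a1, and null replicate 4 that of Cilp, Thbs4 and Dpt. On the log2(TPM + 1) scale WT replicate 2 deviated from the 8-library mean by -1.84 for Thbs4 and -1.49 for Cilp, and by 0.24 for Cilp2 and 0.10 for Erg.

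**Figure D3:**
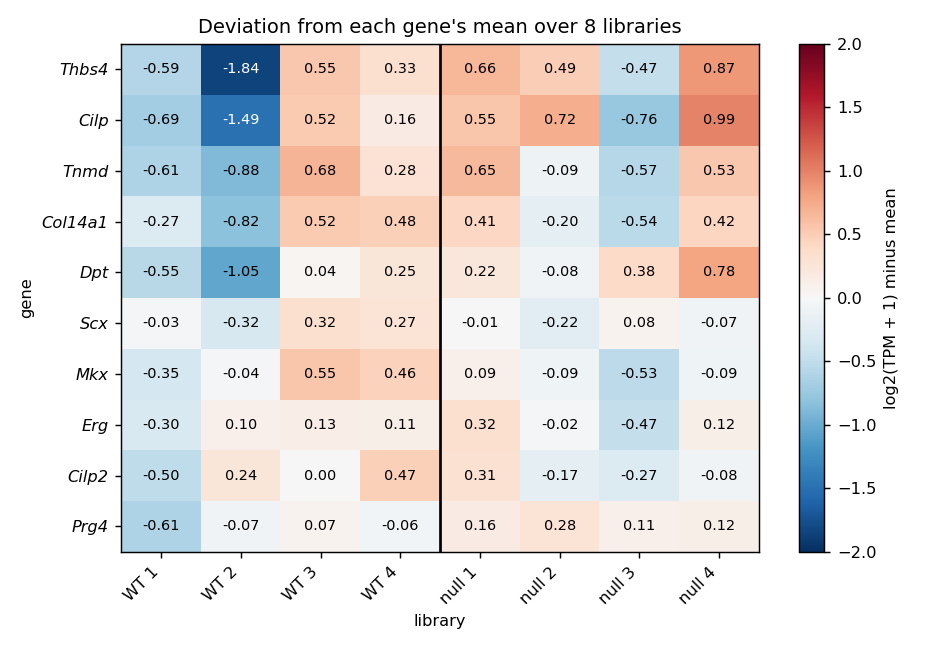
Deviation of each gene from its own mean over the 8 libraries, on the log2(TPM + 1) scale (colour and printed value), with WT left and Mir324-null right of the line. Thbs4, Cilp, Tnmd and Col14a1 are below their means in WT replicates 1 and 2 and null replicate 3, while Prg4 ranges from -0.61 to 0.28.

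Members were compared with each other over the 8 libraries in 45 pairs, of which 44 had a positive Pearson correlation of log2(TPM + 1). After Benjamini-Hochberg adjustment 5 pairs had an exact permutation p under 0.05 for Pearson's r, and 0 had one for Spearman's rho. All values of a library share its TPM scaling. All 5 pairs were among Cilp, Thbs4, Tnmd and Col14a1. Cilp and Thbs4 had r = 0.972 (exact permutation p = 0.000273, adjusted p = 0.0123) and rho = 0.905 (exact permutation p = 0.00456, adjusted p = 0.109), with r = 0.971 after the 2 libraries farthest from the Cilp median were left out. Tnmd and Col14a1 had r = 0.957 (exact permutation p = 0.000843, adjusted p = 0.0175) and rho = 0.881 (exact permutation p = 0.00724, adjusted p = 0.109), with r = 0.951 after the same step on Tnmd.

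Thbs4 and Tnmd had r = 0.894 (exact permutation p = 0.00117, adjusted p = 0.0175) and rho = 0.881 (exact permutation p = 0.00724, adjusted p = 0.109), with r = 0.852 without the 2 libraries farthest from the Thbs4 median. With the group means removed the r of these 3 pairs was 0.964, 0.972 and 0.914, and without null replicate 3, a step added after the data were seen, it was 0.981, 0.951 and 0.899. Cilp and Tnmd had r = 0.882 (exact permutation p = 0.00553, adjusted p = 0.0498) and rho = 0.691 (exact permutation p = 0.0694, adjusted p = 0.240), with r = 0.734 without the 2 libraries farthest from the Cilp median, 0.900 with the group means removed and 0.865 without null replicate 3. Thbs4 and Col14a1 had r = 0.869 (exact permutation p = 0.00427, adjusted p = 0.0480) and rho = 0.714 (exact permutation p = 0.0576, adjusted p = 0.236), with r = 0.770, 0.954 and 0.880 after the same steps, the first on the Thbs4 median.

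Outside the 5 called pairs, Thbs4 and Dpt had r = 0.816 (exact permutation p = 0.0152, adjusted p = 0.0974) and rho = 0.619 (exact permutation p = 0.115, adjusted p = 0.304), and r = 0.0962 without the 2 libraries farthest from the Thbs4 median. That step narrows the range of Thbs4 and leaves 6 libraries, so it cannot show whether a relation is absent without the 2. The r of this pair was 0.763 with the group means removed and 0.927 without null replicate 3. Prg4 and Tnmd had r = 0.462 (exact permutation p = 0.257, adjusted p = 0.428) and rho = 0.500 (exact permutation p = 0.216, adjusted p = 0.442), with r = 0.497 without the 2 libraries farthest from the Prg4 median.

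**Figure D4:**
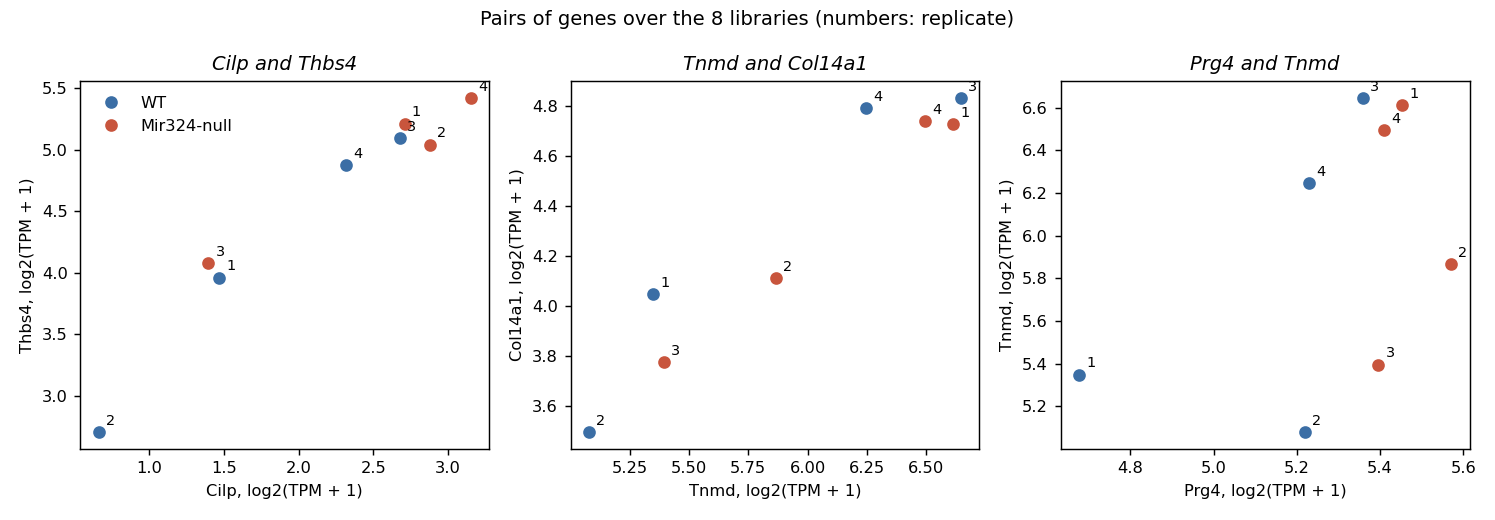
Levels of 3 pairs of genes on the log2(TPM + 1) scale, 1 point per library, with replicate numbers. For Cilp with Thbs4 (r = 0.972) and Tnmd with Col14a1 (r = 0.957) the libraries of both genotypes interleave along the same course, and Prg4 with Tnmd is more scattered (r = 0.462).

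The genes most like each member were sought among 11397 protein-coding tested genes by Pearson correlation of log2(TPM + 1) over the 8 libraries. These are the highest of many values and carry no test. Thbs4 was nearest to Cilp (r = 0.972) and Ly6a (0.965), and Cilp to Col22a1 (0.984) and Rgs12 (0.972). Tnmd was nearest to Lgals9 (0.974) and Thbs2 (0.965), and Col14a1 to Itgbl1 (0.965) and Thbs2 (0.965). Dpt was nearest to Mfap5 (0.959) and Erdr1 (0.948), Scx to Ndufa3 (0.956) and Bglap2 (0.950), and Mkx to Sbf1 (0.979) and Epn1 (0.963). Erg was nearest to Dnmt3a (0.986) and Tmtc1 (0.975), Cilp2 to Wbp1 (0.960) and Ikbke (0.954), and Prg4 to Rnf123 (0.972) and Lime1 (0.948). Thbs2, the gene of thrombospondin-2, which stood near both Tnmd and Col14a1, measured 13.3, 11.4, 32.1 and 25.2 TPM in WT and 26.0, 16.7, 10.4 and 25.8 TPM in the null libraries.

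The summed levels of tendon and fibrous tissue genes were also lowest in WT replicates 1 and 2 and null replicate 3, but not every gene followed. Col1a1, the main collagen gene of tendon and bone, measured 320, 130, 1065 and 563 TPM in the WT libraries and 576, 369, 181 and 627 TPM in the null libraries. The 14 tendon matrix genes summed to 3225, 3052, 5908 and 4646 TPM in WT and to 4759, 3505, 2753 and 4695 TPM in the null libraries. The 12 fibroblast and perichondrium genes summed to 533, 509, 1025 and 868 TPM in WT and to 814, 605, 541 and 849 TPM in the null libraries. These are also the 3 libraries in which Tnmd was lowest. Gene by gene, they were the 3 lowest libraries for 7 of the 14 tendon matrix genes (Col1a1, Col1a2, Col3a1, Col5a1, Col5a2, Col12a1 and Lox) and for 3 of the 12 fibroblast genes (Ly6a, Postn and Mfap4). Within the fibroblast sum, Postn was 67.2 TPM in WT replicate 2 and 541 TPM in WT replicate 3. In the same libraries, in that order, Fap was 271 and 273 TPM and Gsn 123 and 100 TPM. Lum, the lumican gene, was highest of all 8 in WT replicate 2, at 261 TPM, and Clec3b in null replicate 3, at 1.59 TPM. The 8 osteoblast genes, Col1a1 among them, summed to 445, 252, 1243 and 747 TPM in WT and to 701, 496, 305 and 746 TPM in the null libraries.

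Blood markers had the same low libraries. The 6 erythroid genes summed to 342, 111, 1082 and 582 TPM in WT and to 927, 426, 281 and 1039 TPM in the null libraries, again lowest in WT replicates 1 and 2 and null replicate 3, as were 4 of the 6 genes singly. Among the 3 low libraries the chondrocyte sum was 52233 TPM in WT replicate 1, the highest of the WT group, and 42049 TPM in WT replicate 2 and 38759 TPM in null replicate 3, the lowest of all 8. Most of the chondrocyte sum was Col2a1, so it says little of the other genes. Of the 9 chondrocyte genes, 1, Matn1, had the same 3 lowest libraries, and null replicate 3 was the lowest for 6. The 8 skeletal muscle genes summed to 45.4 to 114.5 TPM in WT, highest in replicate 1, and to 58.0 to 81.8 TPM in the null libraries, with the muscle myosin gene Myh4 listed at 0 in all 8. Most of this sum was Tnnt3, at 107 TPM in WT replicate 1. Mylpf differed, with 2.33 TPM in WT replicate 1 and its highest value, 25.4 TPM, in null replicate 3. In bulk RNA, fewer cells of a type and less RNA per cell cannot be told apart, and the part of other tissue or blood in the members' values was not tested.

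**Figure D5:**
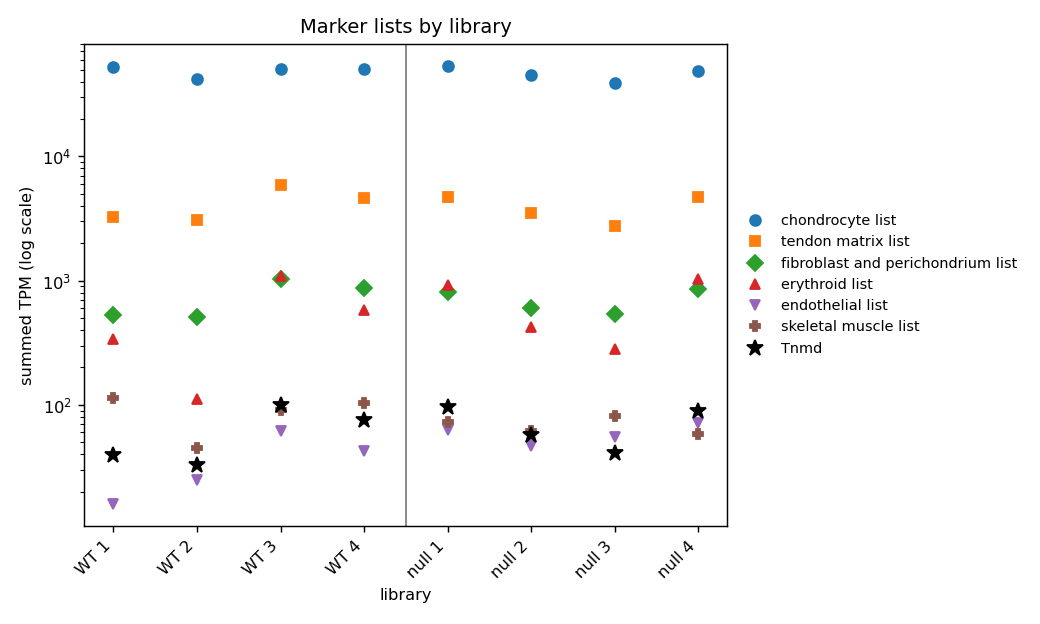
Summed TPM of marker lists and the TPM of Tnmd in each library (log axis; 1 symbol per library). The sums of erythroid genes (111 to 1082 TPM) and fibroblast genes (509 to 1025 TPM) are lowest in the 3 libraries in which Tnmd is lowest. The chondrocyte sum, most of it Col2a1, stays between 38759 and 53583 TPM.

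Wider lists of the same biology gave 0 called genes in either direction at a limma adjusted p under 0.05, and 1 gene, Gdf5, at an unadjusted p under 0.05, against 4.15% of all tested genes. Of 14 tendon matrix genes, all tested, 5 had fold changes above 0 and 9 below, with a median of -0.07. Lox, which crosslinks collagen, averaged 23.2 ± 9.68 TPM in WT against 29.0 ± 5.99 TPM without Mir324, and Col5a1, a fibril collagen, 75.1 ± 15.4 TPM against 68.4 ± 13.4 TPM (SD, n = 4 per genotype; limma adjusted p = 0.981 for both). Of 9 tendon transcription factors 8 were tested, 3 above 0 and 5 below, with a median of -0.09. Egr1, which acts on tendon collagen genes and is also an immediate early gene, averaged 1732 ± 222 TPM against 1478 ± 204 TPM, and Etv4, an ETS factor, 3.03 ± 0.63 TPM against 3.69 ± 0.73 TPM (SD, n = 4 per genotype; limma adjusted p = 0.981 for both).

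Of 13 superficial zone and joint genes 12 were tested, 3 above 0 and 9 below, with a median of -0.16. Gdf5, a growth factor of the joint interzone, averaged 4.35 ± 0.74 TPM in WT against 5.90 ± 0.49 TPM without Mir324 (SD, n = 4 per genotype). Its log2 fold change was 0.37 (limma adjusted p = 0.981). Clu, the clusterin gene, averaged 870 ± 135 TPM against 661 ± 130 TPM (SD, n = 4 per genotype; limma adjusted p = 0.981). The 4 relatives of Thbs4 had 1 value above 0 and 3 below, with a median of -0.03. Comp averaged 1510 ± 85.8 TPM against 1657 ± 210 TPM, and Thbs1 372 ± 29.0 TPM against 324 ± 104 TPM (SD, n = 4 per genotype; limma adjusted p = 0.981 for both).

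The cell type lists held 0 called genes as well, and for each the 2 genes with the smallest p are named (SD, n = 4 per genotype; limma adjusted p = 0.981 except where given). At an unadjusted p under 0.05 they held 4 endothelial, 2 fibroblast and 1 macrophage genes, all with the null group higher. Of all 13910 tested genes 4.15% met this limit, 248 of them with the null group higher, and 2.68% had groups that did not overlap. Fibroblast and perichondrium genes were above 0 for 6 of 10 tested (median 0.16). Fbln2, a fibulin, averaged 2.82 ± 1.39 TPM in WT against 6.54 ± 2.42 TPM without Mir324, with groups that did not overlap, and Cd34 3.02 ± 1.67 TPM against 5.40 ± 1.31 TPM. Endothelial genes were above 0 for 9 of 10 (median 0.76), with Vwf, of von Willebrand factor, at 0.701 ± 0.316 TPM against 1.98 ± 0.651 TPM, also without overlap, and Pecam1 at 3.92 ± 2.26 TPM against 7.90 ± 0.526 TPM. Erythroid genes were above 0 for 5 of 5 (median 0.43), among them Hba-a1 at 50.1 ± 40.1 TPM against 71.4 ± 40.1 TPM and its near-identical copy Hba-a2 at 203 ± 158 TPM against 275 ± 145 TPM, between which reads may be split.

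Chondrocyte genes were above 0 for 2 of 9 (median -0.13). Sox9, the master regulator of cartilage, averaged 153 ± 6.44 TPM in WT against 134 ± 4.65 TPM without Mir324, with groups that did not overlap, and Matn3, of matrilin-3, 276 ± 34.5 TPM against 219.8 ± 54.6 TPM (SD, n = 4 per genotype; limma adjusted p = 0.981 for both). Osteoblast genes were above 0 for 1 of 6 tested out of 8 listed (median -0.27), with Spp1 at 124 ± 26.0 TPM against 101 ± 7.43 TPM and Sp7 at 1.96 ± 1.11 TPM against 1.17 ± 0.32 TPM. Muscle genes were above 0 for 1 of 3 tested out of 8 listed (median -0.40), with Tnnt3 at 74.8 ± 28.0 TPM against 50.8 ± 7.74 TPM and Myod1 at 2.87 ± 1.12 TPM against 1.87 ± 0.536 TPM. Only 2 of the 7 listed macrophage genes were tested, and both were above 0 (median 0.30). Cd14 averaged 33.5 ± 6.40 TPM against 49.3 ± 8.73 TPM and Cd68 17.8 ± 3.05 TPM against 18.7 ± 4.24 TPM (limma adjusted p = 0.989 for Cd68). Among the untested genes, Lyz2 reached at most 1.08 TPM in any library, Csf1r 0.847 TPM and Adgre1 0.0442 TPM. Adipocyte genes were above 0 for 3 of 3 tested out of 6 listed (median 0.21), among them Fabp4 at 37.1 ± 10.9 TPM against 47.3 ± 6.42 TPM and Lpl at 1.54 ± 0.71 TPM against 1.94 ± 0.738 TPM. The untested ones reached at most 1.31 TPM (Cidec), 0.181 TPM (Adipoq) and 0.135 TPM (Plin1) in any library. The part of these cell types in the members' values was not tested.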

How the data were processed

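Gene-level values of 8 samples came from a single table. They are TPM as deposited by the authors, who call them length-scaled, with a column for each sample. Kallisto and DESeq2 are the tools listed per the submitters' processing notes, with no version or role. The human build GRCh38 is also listed there although the identifiers are mouse Ensembl genes, and the transcriptome used is unknown; coordinates and biotypes here are from GENCODE M21 (GRCm38), which held 52220 of 52325 identifiers. Repeated identifiers (273, on 813 rows with identical values) were counted once, after which every column summed to 1000000. The deposited column of null replicate 3 was entered as another unit because its repeats bring its sum above that; it was treated as TPM. Whether counting used strand was not given in the sources used here.

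In all, 13910 genes reached 1 TPM in 4 libraries or more and entered the fit. The fit used limma 3.58.1 (R 4.3.3) on log2(TPM + 1), with a trended prior variance, no covariate and Benjamini-Hochberg adjustment over all genes at 0.05. Fold changes on this scale understate the change of low genes. The procedure was tested on simulated data with independent noise for each gene and no effect shared by a library. That test therefore does not show how often a change would be found in these libraries. Correlations used exact permutation over 8 libraries, two-sided. Named genes are all members, the 2 tested genes with the smallest p of each other list, and the 2 protein-coding genes most like each member. Values of Col1a1, Fli1, Lum, Clec3b, Fap, Gsn and Myh4, and the genes listed as sharing the low libraries, were added after they were seen. So were those of Col2a1, Mylpf and the macrophage and adipocyte genes that were not tested. Members and lists were chosen with earlier results of these data known. The settings varied were scaling by the median of ratios, the pseudocount (0.1), no filter, a mean TPM of at least 1, a replicate block, array quality weights, Xist as a covariate, protein-coding genes only, and leaving out each library. Each library came from a separate mouse.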

Additional observations from a re-analysis of the deposited data

Results flagged for a closer look

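A value was singled out where the highest or lowest of 4 libraries lay far from the rest of its group, by Dixon's ratio of the gap to the group's range at the 95% level. Chance gives this in about 1 of 20 groups, and 4 of the 92 groups examined met it. Erg in WT replicate 1, at 7.07 TPM, lay below the next WT library at 9.68 TPM (gap 0.928 of the range). Gdf5 in WT replicate 4, at 5.46 TPM, lay above the next at 4.04 TPM (gap 0.914 of the range). The summed chondrocyte markers of WT replicate 2 lay below the other WT libraries (42049 against 50740 TPM, gap 0.853 of the range). Most of both sums was Col2a1, at 33113 TPM in WT replicate 2 and 41227 TPM in WT replicate 3, the next library. Pecam1 in WT replicate 3, at 7.26 TPM, lay above the next at 3.12 TPM (gap 0.830 of the range).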

How the results depend on the processing

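The number of members called was 0 under all 16 alternatives, and the smallest limma adjusted p of any member was 0.761. At an unadjusted limma p under 0.05 the count of 0 depended on the setting, since Dpt, Prg4 and Cilp passed under some alternatives. Their smallest unadjusted limma p was 0.00882 for Dpt with the replicate block, 0.0360 for Prg4 with median-of-ratios scaling and 0.0447 for Cilp without null replicate 3. Prg4, Cilp, Thbs4, Tnmd and Dpt stayed above 0 and Scx and Mkx below 0 in all 16. The median log2 fold change of the members ran from 0.0031 to 0.321 when each library was left out and from 0.154 to 0.309 otherwise. Cilp2, Col14a1 and Erg changed sign. Cilp2 was 0.0951 with array quality weights and up to 0.0333 when a library was left out (lowest -0.291). Col14a1 ran from -0.218 to 0.234 when a library was left out. Erg was 0.039 with median-of-ratios scaling, 0.177 with array quality weights, 0.0104 with the Xist covariate and 0.0103 with protein-coding genes only, and ran from -0.134 to 0.131 when a library was left out. The count of all genes called, 3, was 5 with a pseudocount of 0.1 and 0 with no filter, with a mean TPM of at least 1, with the Xist covariate and with protein-coding genes only, and it ran from 0 to 6 when a library was left out; the cause was not tested. The replicate numbers do not pair the mice by any label, and same-numbered libraries had correlations of deviations of -0.039, 0.114, -0.047 and 0.108. With the replicate block 0 genes and 0 members were called. TPM gives no depth, so how far counting error limits low genes such as Dpt and Mkx is unknown.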
